A study of Arabidopsis thaliana with 6 samples.

Results

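The regulators described here are 27 Arabidopsis thaliana genes of the bZIP, bHLH, Aux/IAA and NAC families, each read by 1 of the 13513 probe sets that the annotation assigns to a single gene. They were chosen by symbol alone: a probe set counted if its gene symbol in the platform annotation, with any AT prefix ignored and in capitals or small letters, began with 1 of 12 family prefixes followed by a digit. The members comprise 14 bZIP, 5 bHLH, 7 Aux/IAA and 1 NAC gene. The prefixes HB, ANAC, ERF, GATA, DOF, ARF, HSF and TGA matched 0 single-gene probe sets, so homeobox, ethylene response, GATA, Dof, auxin response, heat shock and TGA factors under these symbols were not analysed here. All 27 matched a locus in the RefSeq gene table, and none carried the symbol of another kind of protein. The annotation does not list 8730 of the 22746 probe sets other than controls, so a gene that could not be read here may still have a probe set on the array.

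Total RNA came from flowers at stage 15, with 3 samples of wild-type Columbia plants and 3 of transgenic plants that overexpress miR159a, a small RNA known to silence genes of MYB factors. Each sample was read on 1 one-colour array, and the samples of each group carry the letters a, b and c. The promoter of the transgene, the number of lines and whether the letters mark separate plants are not stated in the labels, so p-values measure the spread of these samples, and that spread may be technical. The comparison asks which of these regulators differ in flowers when miR159a is overexpressed.

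The families act at different points. bZIP proteins bind DNA as pairs held together by a leucine zipper and take part in stress, nutrient and seed programmes. The bHLH genes named here belong mostly to a network that adjusts iron uptake and storage. Aux/IAA proteins are short-lived repressors of auxin response, which the hormone removes by docking them to an F-box receptor through a short degron. NAC proteins are a large family found in plants only.

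The files hold 1 deposited signal per probe set and array, an intensity on a linear scale. Median signals of the arrays ran from 85.2 to 97.0. The a arrays of both groups lay apart from b and c on the second principal component, which held 29.7% of the variance. The fit was therefore also run without them. It turned the direction of BZIP17, bZIP58 and BZIP60, whose log2 fold changes were then -0.02, -0.03 and 0.03. bZIP43 was not tested in that fit, and the other 15 of the 19 tested members kept their direction. A probe set was tested where its mean of log2(signal + 16) over the 6 arrays lay above the lowest 25% of probe sets, a limit equal to a signal of 18.4. Fold changes are on that log2(signal + 16) scale, so changes of dim probe sets come out too small, and adjusted p-values come from limma over all 17059 tested probe sets. A fall in whole flowers cannot tell fewer cells of a type from less RNA per cell.

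None of the regulators passed the test. Of the 19 tested members, 0 were lower and 0 higher at a limma adjusted p under 0.05, against 2.17% lower and 0.135% higher of all tested probe sets. At an unadjusted p under 0.05, limma gave 3 lower (IAA31, BZIP61 and IAA30) and 1 higher (IAA33), which is 15.8% and 5.26% of the 19 against 5.73% and 3.05% of all tested. No member passed with any of the 15 other settings in which it was tested, among them the letter as a block and the fit without both arrays lettered a. The median log2 fold change of the 19 was -0.02, beside 0.04 for all tested probe sets. Of the 19 log2 fold changes, 9 lay above 0 and 10 below, from -0.65 for IAA31 to 0.67 for IAA33.

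The intervals depend on the added constant for the dim members. For 17 of the 19 members (89.5%) the 95% interval of the log2 fold change lay within -1 and 1 on the log2(signal + 16) scale, against 86.5% of all tested probe sets. The exceptions were IAA31, with an interval from -1.03 to -0.28, and IAA33, with 0.04 to 1.30. With a pseudocount of 1, 14 of the 19 lay within these limits, and BZIP61, IAA30 and bZIP43 joined the exceptions, against 77.5% of all tested probe sets. The standard error of the 19 ran from 0.15 to 0.27, and their spread between replicates had a median of 0.21 log2 units, beside 0.23 for all tested probe sets.

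**Figure D1:**
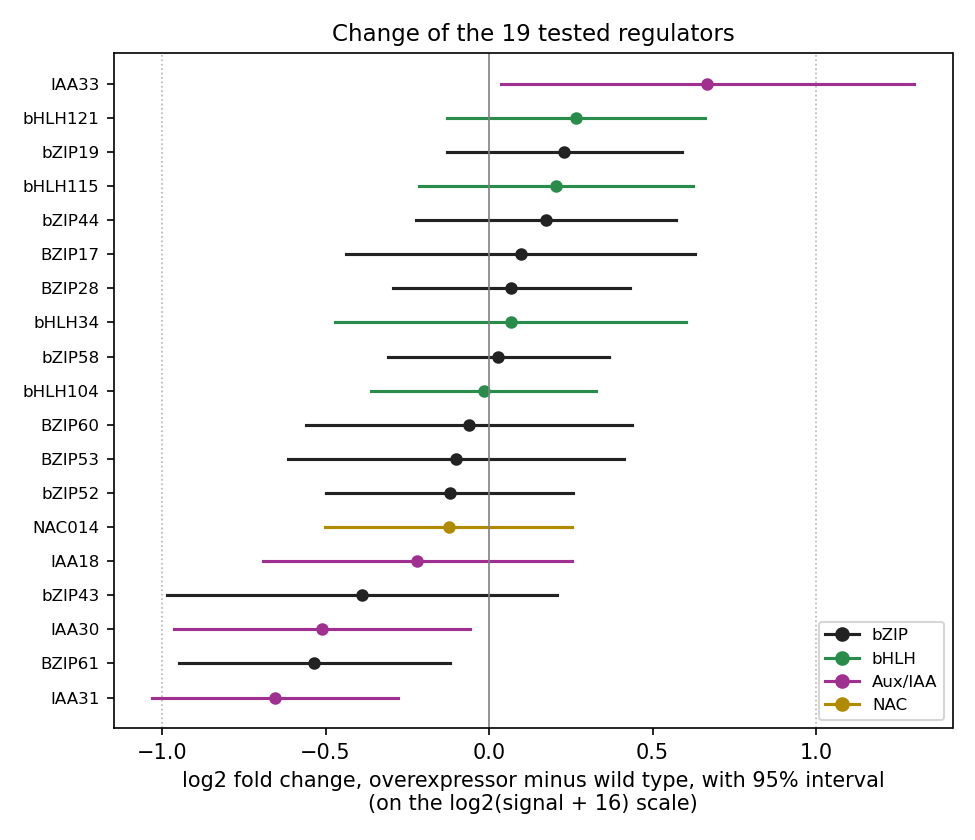
Log2 fold change of the 19 tested regulators (horizontal axis, overexpressor minus wild type on the log2(signal + 16) scale, n = 3 arrays per group), with points at the estimate, lines for the 95% interval from limma and colours for the family. Most intervals cover 0 and lie between the dotted lines at -1 and 1; IAA31, BZIP61 and IAA30 lie below 0 and IAA33 above 0, and none passed adjustment over all probe sets.

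Set among all tested probe sets, the members with the lowest fold changes, IAA31, BZIP61 and IAA30, had wild-type means of 27.8, 64.7 and 37.4. IAA33, with the highest, had a wild-type mean of 13.8.

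**Figure D2:**
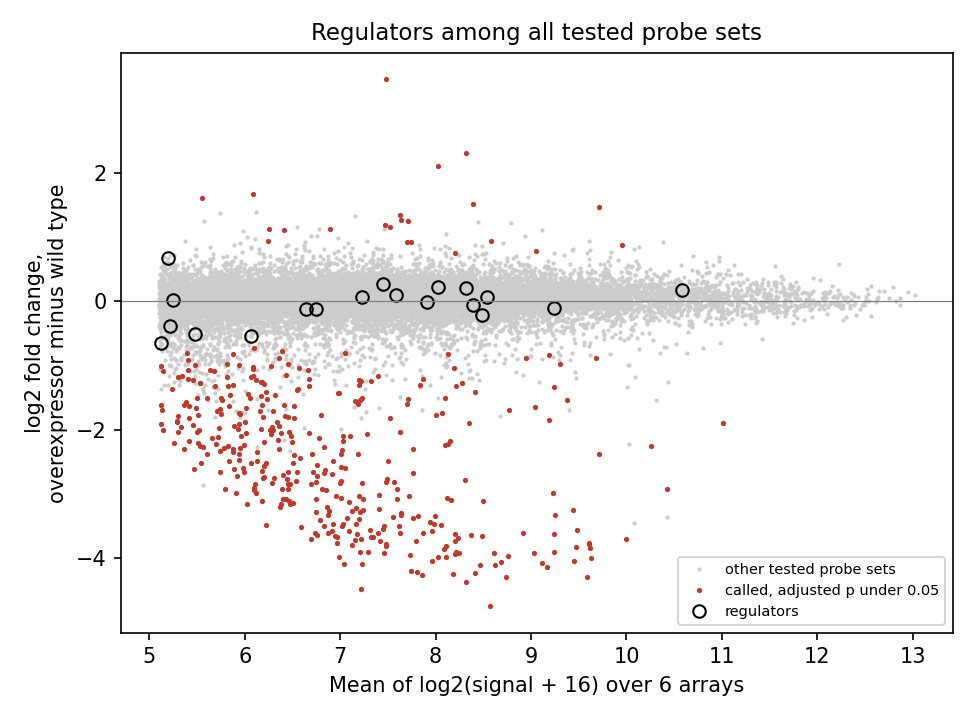
Log2 fold change (vertical axis) against the mean of log2(signal + 16) over the 6 arrays (horizontal axis) for all 17059 tested probe sets, with called probe sets in red and the 19 tested regulators as open circles. The circles lie between -0.65 and 0.67, and none of them is a called probe set.

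Signals in wild type differed widely between members. As different probe sets respond differently to their transcripts, these signals describe each probe set and do not rank the genes by RNA level. Of the 27 members, 10 gave more than 100 on every array and 13 stayed under 50 on every array. The 8 members below the test limit were 4 bZIP, 3 Aux/IAA and 1 bHLH gene. On the mean log2(signal + 16) scale the limit stood at 5.10. IAA31 at 5.12 and IAA33 at 5.20 were the members just above it, and bZIP42 at 5.06 and BZIP24 at 4.999 those just below.

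**Figure D3:**
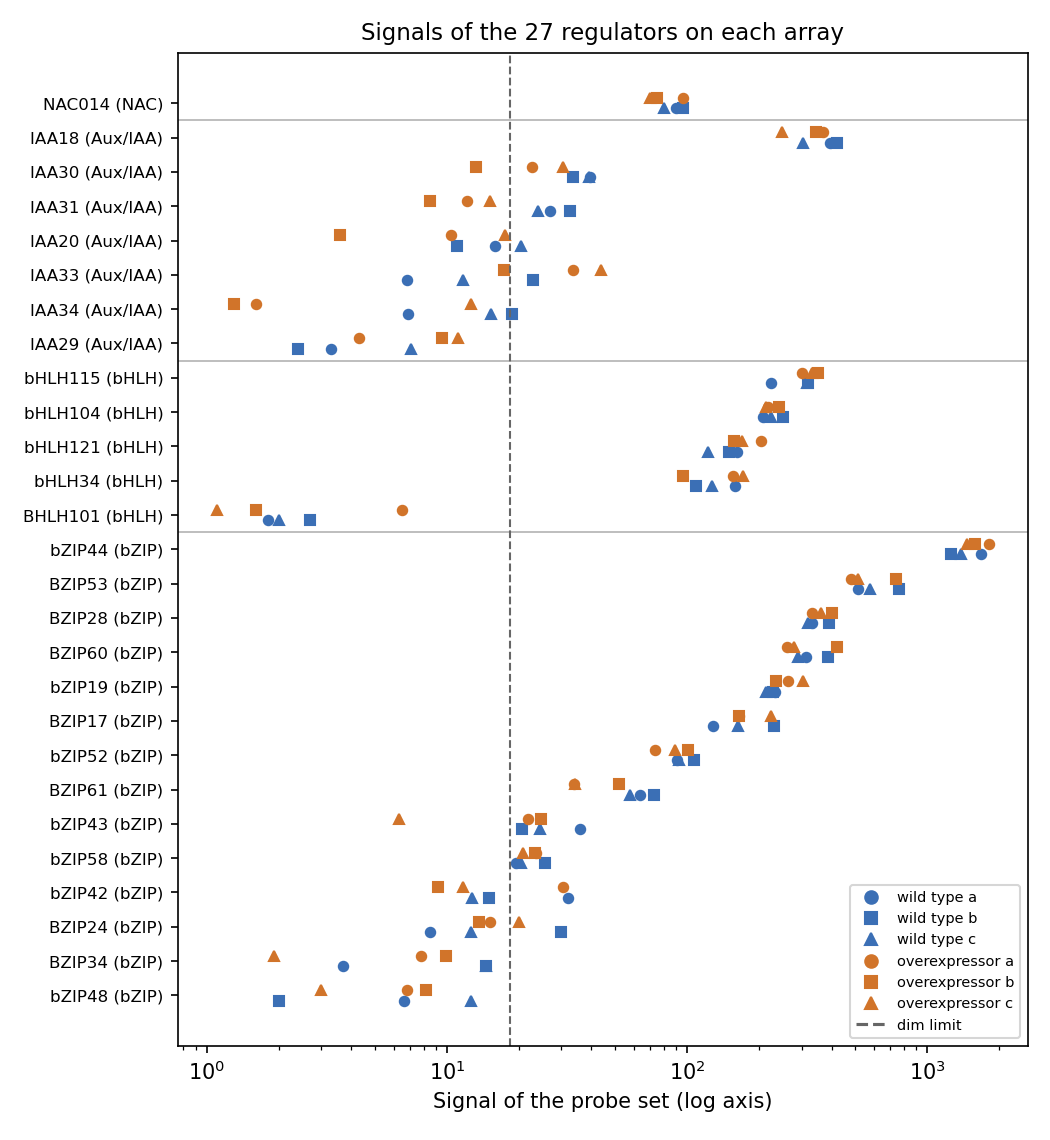
Signal of each of the 27 regulators on each of the 6 arrays (log axis), grouped by family and sorted by wild-type mean, with wild type in blue, the overexpressor in orange and the letters as symbols; the dashed line marks the test limit of 18.4. bZIP44 reads between 1253 and 1807, while BZIP24, BZIP34, bZIP48, IAA20, IAA29, IAA33, IAA34 and BHLH101 have wild-type means to the left of the line.

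The bZIP genes of the endoplasmic reticulum stress response were measured well above the limit and did not pass the test. BZIP17 and BZIP28 encode factors anchored in the membrane and freed by proteases when unfolded proteins build up, and BZIP60 encodes a factor whose mRNA is spliced on such stress. For BZIP28 the wild-type signals were 332.3, 391.7 and 319.5 in a, b and c, and the overexpressor signals 332, 400.5 and 363. The groups overlapped, with a log2 fold change of 0.07 (95% interval -0.29 to 0.43, limma adjusted p = 0.979). BZIP60 read 312.9, 388.1 and 290.2 in wild type and 261.1, 421.2 and 280 in the overexpressor. Its b array was the highest of each group, and its log2 fold change was -0.06 (interval -0.56 to 0.44). BZIP17 read 127.9, 231.3 and 163.1 against 164.7, 164.1 and 223.4, with a log2 fold change of 0.10 (interval -0.44 to 0.63). The array signal sums over the transcript that the probes read and does not separate spliced from unspliced BZIP60.

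The partners of these factors were read from 4 of 20 genes in a list of endoplasmic reticulum stress genes, and 0 of the 4 passed in either direction, with a median log2 fold change of 0.06. S1P, the protease that makes the first cut in the anchored factors, had a log2 fold change of 0.32 (interval -0.13 to 0.78, limma adjusted p = 0.78), and AT4G20310, listed as S2P, the protease of the second cut, -0.14. The chaperone genes CRT1b and ATERDJ3B had -0.02 and 0.15. This list was chosen after the members had been read from the annotation.

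bZIP44 and BZIP53 belong to the group of small bZIP genes whose translation sucrose represses, and BZIP53 also acts in seed maturation. bZIP44 gave signals of 1673.2, 1253.1 and 1384.5 in wild type and 1807.3, 1580.4 and 1466 in the overexpressor. Each overexpressor array lay above the wild-type array of its letter, yet the groups overlapped, and the log2 fold change was 0.17 (interval -0.22 to 0.57, limma adjusted p = 0.924). BZIP53 read 517.1, 763.3 and 578.9 against 483.6, 741.2 and 513.7. Here each overexpressor array lay below its wild-type letter partner, by 0.04 to 0.17 log2 units, with a log2 fold change of -0.10 (interval -0.61 to 0.41). The list of their bZIP partners and amino acid metabolism targets had 10 genes, and 0 of them could be read here.

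bZIP19, which switches on zinc transporter genes when zinc is scarce, was the 1 member whose overexpressor arrays all lay above all wild-type arrays. Its signals were 232.4, 228.9 and 212.7 in wild type and 263.5, 234.2 and 305.5 in the overexpressor. The gap was small, from 232.4 to 234.2, and the log2 fold change of 0.23 (SE 0.16, interval -0.13 to 0.59) had a limma adjusted p of 0.821. Such a separation upward was seen in 1 of 19 tested members (5.26%) and in 7.46% of all tested probe sets. Of 9 zinc transport genes in a list chosen after the members were known, ZIP9 alone could be read here, with a log2 fold change of 0.08 and adjusted p of 0.979. BZIP24, a relative of bZIP19 that acts in salt response, lay below the limit, with signals of 8.5 to 30 in wild type and 13.6 to 20 in the overexpressor.

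BZIP61 showed the lowest log2 fold change of the bZIP genes. It is the close relative of BZIP34, which is needed for a normal pollen wall. BZIP61 read 63.5, 72.7 and 57.8 in wild type and 33.9, 52.3 and 34.3 in the overexpressor. All overexpressor arrays lay below all wild-type arrays, with means of 64.7 ± 7.52 and 40.2 ± 10.5 (SD, n = 3). The log2 fold change was -0.53 (SE 0.18, interval -0.95 to -0.12), with a limma adjusted p of 0.345, which does not pass. With the letter as a block the adjusted p was 0.108, and without both arrays lettered a the log2 fold change was -0.47. The value depends on the added constant: it was -0.70 with a pseudocount of 1 and -0.31 with 64.

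BZIP34 itself lay below the limit and was not tested. It read 3.7, 14.5 and 14.6 in wild type and 7.8, 9.9 and 1.9 in the overexpressor, so the groups overlapped. The difference ran upward between the arrays lettered a and downward between those lettered b and c.

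Pollen marker transcripts read lower in the overexpressor, but how many passed depended on the arrays and the processing. Of 12 mature pollen marker genes tested, 9 fell, 0 rose and 3 did not pass, with a median log2 fold change of -2.05. Among all tested probe sets 2.17% were called lower. ANX1, ACT12, AT2G21480, AGL66 and AGL104 had overexpressor means of 3.67, 7.2, 17.2, 14.1 and 10.9, below the limit of 18.4. These genes passed the filter through wild type, so their part in the count and the median is no support for a change. Without both a arrays 10 of the 12 markers were tested and 0 passed, with a median of -1.89. The count was 3, 0, 2 and 2 without wild-type replicate a, wild-type replicate b, overexpressor replicate a and overexpressor replicate c, with medians from -2.49 to -1.91. Without wild-type replicate c 7 of 11 tested passed, and without overexpressor replicate b 8 of 12, with medians of -2.52 and -2.35. Quantile normalisation gave 8, and median centring, the letter as a block and array weights gave 9 each. The count was 3 with a pseudocount of 1 (11 tested, median -3.29), 6 with 64 (median -1.23) and 4 with no filter. With the lowest 50% left out, 4 of 5 tested passed. On all 6 arrays ANX1 fell by 1.69 and AT1G49490 fell by 3.67 on the log2 scale, and between these lay ANX2, ACT12, AT4G39110, AT2G21480, AT2G15880, AT4G33970 and AT3G19020. AGL66, AGL104 and AGL65 had -0.91, -0.77 and -0.12. Their summed signal was 1544 to 3846 on the wild-type arrays and 158 to 528 on the overexpressor arrays, with 0 values listed at 0. Green tissue markers, read from 4 of 6 genes, had log2 fold changes from 0.23 for PSAE-1 to 0.35 for LHCB4.2, with PSAN and PSBY between them, and 0 passed. Of 11 floral organ identity genes, 0 could be read here, so the tissue label was not checked with them. The part of pollen or green tissue in the values of the regulators was not tested.

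The remaining bZIP genes did not pass the test or lay below the limit. bZIP52 read 90.5 to 107 in wild type and 73.6 to 101 in the overexpressor, lower in each letter, with a log2 fold change of -0.12 (interval -0.50 to 0.26). bZIP43 read 35.7, 20.6 and 24.5 against 21.7, 24.7 and 6.3, and its log2 fold change of -0.39 (interval -0.98 to 0.21, adjusted p = 0.817) was -0.12 without overexpressor replicate c, its lowest array. bZIP58 stayed between 19.4 and 25.7 on all 6 arrays, with the smallest spread between replicates of the tested members (0.10 log2 units) and a log2 fold change of 0.03. bZIP42 and bZIP48, both below the limit, ranged from 9.2 to 31.8 and from 2 to 12.6 over the 6 arrays, with overlapping groups. In bZIP42 the highest reading of each group, 31.8 and 30.3, was on the array lettered a.

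No gene of the iron network passed the test. bHLH34, bHLH104 and bHLH115 belong with ILR3 to a set of related factors that switch on iron uptake genes, and bHLH121 acts together with them. bHLH104 read 207.5, 249.9 and 223.4 in wild type and 217.9, 241.4 and 212.7 in the overexpressor. Its groups overlapped almost fully, and the log2 fold change of -0.02 had an interval from -0.36 to 0.33. bHLH115 read 222.9, 318.7 and 315.1 against 301.4, 350.7 and 331.6, higher in the overexpressor within each letter, and most so between the arrays lettered a. Its log2 fold change was 0.20 (interval -0.21 to 0.62, limma adjusted p = 0.908).

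bHLH121 read 161.8, 148.9 and 122.2 in wild type and 203, 157 and 170.2 in the overexpressor. It too was higher within each letter, with groups that overlapped through overexpressor array b, and had the largest log2 fold change of the bHLH genes, 0.27 (SE 0.17, interval -0.13 to 0.66, adjusted p = 0.80). bHLH34 read 159.1, 109.4 and 127.1 against 156, 96.5 and 170.3, with a log2 fold change of 0.07 (interval -0.47 to 0.60). Its spread between replicates, 0.33 log2 units, was the largest of the tested bHLH genes. BHLH101, a factor induced by iron deficiency, gave 1.1 to 6.5 on all 6 arrays, below the limit.

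Of 25 other iron genes in a list chosen after the members were known, 4 could be read here and 3 were tested, and 0 passed in either direction. ILR3 had a log2 fold change of 0.06, PYE, a repressor of the network, 0.12, and AT1G18910, listed as BTSL2, a ubiquitin ligase gene, 0.02. Both probe sets of AT1G74770, listed as BTSL1, lay below the limit. Together the tested bHLH genes and these 3 had log2 fold changes from -0.02 to 0.27.

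The tested Aux/IAA genes had log2 fold changes from -0.65 for IAA31 to 0.67 for IAA33. Both of these passed the filter through the group where they are high, since the mean of the other group, 11.9 and 13.8, lay below the limit of 18.4, so their place at the ends of the range and in the counts of members is no support for a change. IAA18 and IAA29 have the degron through which auxin acts, whereas IAA20, IAA30, IAA31, IAA33 and IAA34 lack it in its usual form. IAA18 was the brightest probe set of the family, with 393.8, 422.7 and 304.9 in wild type and 368.8, 344.3 and 247.8 in the overexpressor. It was lower in the overexpressor within each letter, by 0.09 to 0.28 log2 units, but the groups overlapped, and the log2 fold change of -0.22 (interval -0.69 to 0.25) had a limma adjusted p of 0.919.

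The other 6 stayed under 50 on every array. IAA31 read 26.9, 32.6 and 24 in wild type and 12.1, 8.5 and 15.1 in the overexpressor, with means of 27.8 ± 4.38 and 11.9 ± 3.305 (SD, n = 3). The groups did not overlap, and the overexpressor signals lay below both the pseudocount and the test limit. Its log2 fold change was -0.65 (SE 0.16, interval -1.03 to -0.28), the smallest p of the 19 but an adjusted p of 0.123, and of 0.0954 with the letter as a block. With a pseudocount of 1 it was -1.18 (adjusted p = 0.0706) and with 64 -0.27. Without both arrays lettered a it was -0.68 (adjusted p = 0.288). IAA31 went untested when any 1 wild-type array was left out, as its mean then fell below the limit, and when the lowest 50% was left out.

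IAA30 read 39.5, 33.6 and 39 in wild type and 22.6, 13.2 and 30.3 in the overexpressor. Again all overexpressor arrays lay below all wild-type arrays, and the log2 fold change was -0.51 (SE 0.20, interval -0.96 to -0.06, limma adjusted p = 0.464). With pseudocounts of 1 and 64 it was -0.81 and -0.24. With the letter as a block the limma adjusted p of IAA30 was 0.165. Together with BZIP61, IAA30 and IAA31 made 3 of 19 tested members (15.8%) with such a downward separation, beside 7.2% of all tested probe sets. That share was not tested.

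IAA33 went the other way. It read 6.8, 22.9 and 11.7 in wild type and 33.5, 17.3 and 43.8 in the overexpressor. The arrays lettered a and c rose by 1.12 and 1.11 log2 units, while those lettered b differed by -0.22, so the groups overlapped. The log2 fold change of 0.67 (SE 0.27) had a limma adjusted p of 0.529, and without both arrays lettered a it was 0.44. With pseudocounts of 1 and 64 it was 1.19 and 0.29.

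IAA20, IAA34 and IAA29 lay below the limit and have values with no test. IAA20 read 15.7 ± 4.65 in wild type and 10.5 ± 6.90 in the overexpressor (SD, n = 3), and IAA34 read 6.9, 18.7 and 15.3 against 1.6, 1.3 and 12.6. Both were lower in the overexpressor within each letter, and both had overlapping groups. IAA29, a gene of the shade response, read 3.3, 2.4 and 7.1 against 4.3, 9.5 and 11.1, higher within each letter.

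Counted by letter, 5 of the 7 Aux/IAA genes were lower in the overexpressor in all 3 letters (IAA18, IAA20, IAA30, IAA31 and IAA34) and 1 was higher (IAA29). Of these, IAA20, IAA34 and IAA29 lay below the limit. Among the 4 tested Aux/IAA genes, 3 were lower and 0 higher. The whole set of 27 had 9 lower and 5 higher. Among tested members the counts were 6 of 19 lower (31.6%) and 4 of 19 higher (21.1%), against 15.3% and 21.7% of all tested probe sets. The bHLH genes had 2 higher (bHLH115 and bHLH121) and 0 lower of 5, and the bZIP genes 4 lower and 2 higher of 14. Counts that include members below the limit have no share over all probe sets beside them. All these counts describe the arrays and were not tested.

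**Figure D4:**
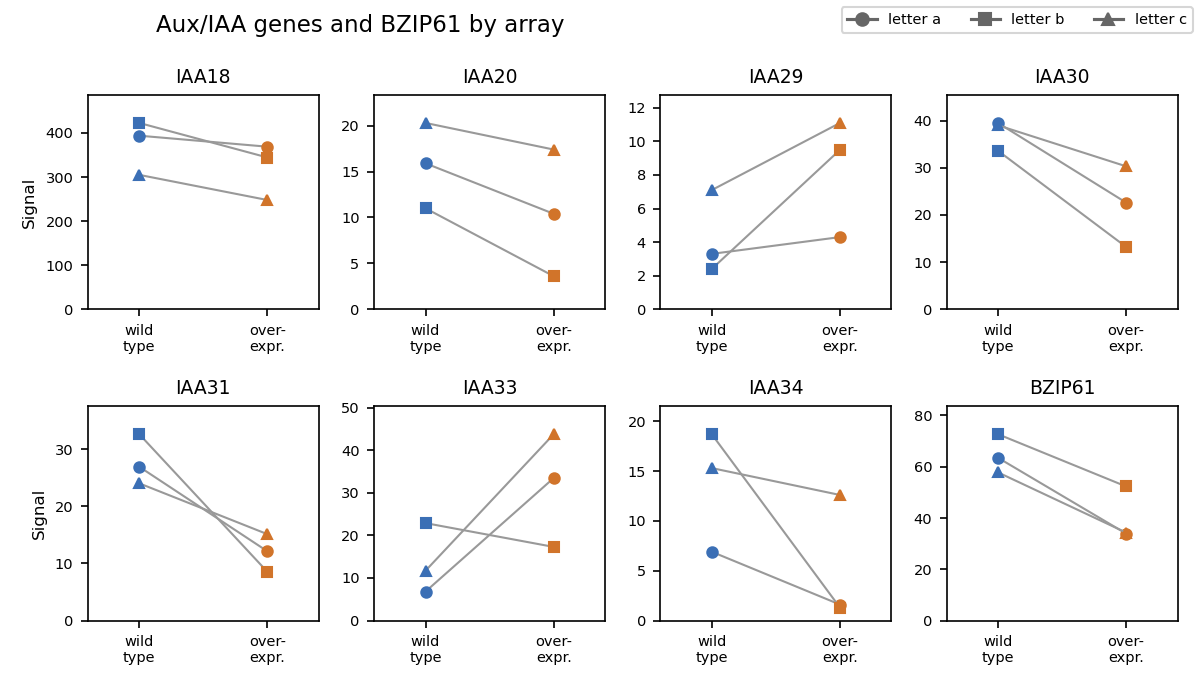
Signals of the 7 Aux/IAA genes and BZIP61 on each array (linear vertical axes from 0, a scale for each gene), with wild type in blue, the overexpressor in orange and lines joining the arrays of 1 letter. All 3 lines fall for IAA18, IAA20, IAA30, IAA31, IAA34 and BZIP61, and all 3 rise for IAA29, while IAA33 rises in a and c but not in b.

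Of 16 genes in a list of auxin signalling and transport, 4 could be read: GH3.3, WES1, YUC2 and YUC6. No auxin receptor or transporter gene of the list could be read. Of the 4 genes, 1 fell, 0 rose and 3 did not pass, with a median log2 fold change of -0.59. The share called lower among all tested probe sets was 2.17%. GH3.3, whose enzyme links auxin to amino acids, read 426.5, 491.2 and 308 in wild type and 190.6, 188.1 and 184.6 in the overexpressor. It fell by 1.03 on the log2 scale (SE 0.19, limma adjusted p = 0.0332). The call ended in 8 of 15 other settings, with an adjusted p from 0.0149 with the letter as a block to 0.169 without both a arrays, while the log2 fold change stayed between -1.22 and -0.89. Leaving out any 1 array other than wild-type replicate c ended it, with adjusted p from 0.0876 to 0.142. Its relative WES1 had -0.57 (adjusted p = 0.319) and the auxin synthesis genes YUC6 and YUC2 had -0.60 (adjusted p = 0.515) and 0.20 (adjusted p = 0.941). For WES1 and YUC6 all overexpressor arrays lay below all wild-type arrays, as for 7.2% of all tested probe sets, and neither gene passed the test.

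**Figure D5:**
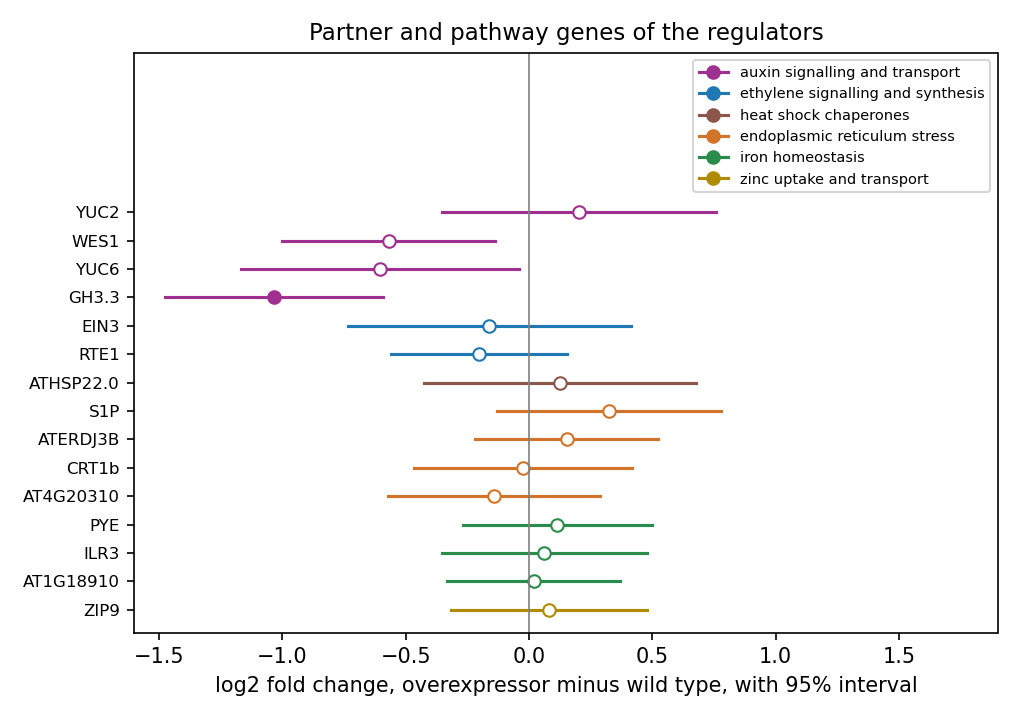
Log2 fold change (overexpressor minus wild type, n = 3 arrays per group) of the tested genes of the pathway lists, with 95% intervals from limma and colours for the list; a filled point passed the adjusted p threshold of 0.05. Only GH3.3 is filled, at -1.03, and WES1 and YUC6 also have intervals below 0.

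Other lists that belong to the searched families gave few genes. The ethylene list was read from 2 of 14 genes, with log2 fold changes of -0.16 for EIN3, the transcription factor at the end of the pathway, and -0.20 for RTE1, which acts on the receptor, and 0 passed. The heat shock list was read from 1 of 13 genes, ATHSP22.0, with 0.13 (adjusted p = 0.974). ROXY1 and ROXY2, glutaredoxins that bind TGA factors in flower and anther development, were 2 of 8 genes of the TGA partner list and lay below the limit, with signals up to 15.6 and 14.6. The abscisic acid list had 9 genes, of which 0 could be read here.

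NAC014, the NAC gene of the set, encodes a member of that plant-specific family. It read 89.6, 96.2 and 80 in wild type and 95.8, 75.2 and 70.4 in the overexpressor. The groups overlapped through array a of the overexpressor, and the log2 fold change was -0.12 (SE 0.16, interval -0.50 to 0.26, limma adjusted p = 0.951).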

How the data were processed

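The authors deposited 1 intensity per probe set and array for 22810 probe sets. The software, normalisation and array build behind them are not given in the sources used. The deposited intensities had been scaled already, with a 2% trimmed mean of 199 on each array (198.7 to 199.2). From them log2(signal + 16) was computed, with no further normalisation. After 64 control probe sets and the lowest 25% by mean were left out, 17059 of 22746 entered the two-sided test of limma (version 3.58.1, lmFit and eBayes, run in R 4.3.3). Its p-values were adjusted by the Benjamini-Hochberg method, with a threshold of 0.05. The fit was checked on simulated data. The number of arrays limits the precision, and detection calls were not used.

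Genes were named from a platform annotation and matched by gene identifier to the RefSeq table of TAIR10.1. The members, lists, tests and alternatives were chosen with earlier results of these data known, and the endoplasmic reticulum stress, iron, zinc and bZIP partner lists after the members were read. Genes are named by a rule: called members, the brightest, highest and lowest of each family, the 6 smallest p and the tested list genes. The other members are given as well.

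Pairing rests on the letters in the sample titles. Deviations from the group means correlated between same-lettered arrays with r = 0.57 (a), 0.36 (b) and 0.38 (c) over probe sets, so the letters were treated as pairs in the fit with a block. The main fit, which gave every interval and standard error, left the letters out. Alternatives were quantile normalisation, median centring, other pseudocounts and filters, the replicate block, array weights, each array left out and both arrays lettered a left out.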

Additional observations from a re-analysis of the deposited data

How the results depend on the processing

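The counts of members called, 0 lower and 0 higher, were the same under all 15 alternatives, including the replicate block, which gave 570 lower and 71 higher over all probe sets against 370 and 23 without it. The replicate block left the median of the members at -0.02 and changed no call of a member. That median was 0.0286 with median centring, which moved the median of all tested probe sets to 0.09, -0.0501 with no filter (27 members), 0.0673 with the lowest 50% left out (12 members) and -0.057 with array weights. With 1 array left out it ran from -0.0801 to 0.0554, the extremes being without wild-type replicates a and b. With other filters the set of members tested differs. Of the 19 tested members, 13 kept their direction in every alternative that tested them. The log2 fold change of bHLH104, near 0 at -0.02, was 0.0286 with median centring and ran from -0.074 to 0.0513 with 1 array left out. Calls in the pathway lists numbered 1 (GH3.3), and 0 with a pseudocount of 1, with no filter and without both arrays lettered a. With 1 array left out they numbered 0 or 1. Why the call of GH3.3 ended in these settings was not tested. No member bore the symbol of another kind of protein and each gene had 1 probe set, so the alternatives for those cases were not run. The 8 members below the filter are limited by the dimness of their signals.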
